A study of Mus musculus with 7 samples.

Results

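The ketone body genes described here are Acat1, Bdh1, Bdh2, Slc16a1 and Slc16a6, 5 genes chosen by symbol out of the 51426 genes counted in each liver. Liver mRNA was sequenced from 3 WT and 4 TET1 KO male mice, each labelled as strain C57BL/6J and fed a high-fat diet (HFD) for 16 weeks from 8 weeks of age. TET1 is a dioxygenase that oxidises 5-methylcytosine in DNA, and the study asked what its loss does to the fatty liver that the diet brings on. The labels call the knockout a whole-body one, so the deletion was not limited to hepatocytes. The study's methods list heterozygous B6;129S4-Tet1tm1.1Jae/J mice as the source of the line, while the labels give C57BL/6J for both genotypes. There was no group on normal chow among these libraries, so each comparison is between genotypes on HFD. The study's methods say that the mice were not fasted when serum was taken after the feeding period, and give no separate feeding state for the sequenced livers.

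Ketone bodies are made in liver mitochondria from the acetyl-CoA that fatty acid oxidation releases. ACAT1 joins acetyl-CoA into acetoacetyl-CoA and can also run the reverse reaction, later mitochondrial steps yield acetoacetate, and BDH1 reduces it to β-hydroxybutyrate. Hepatocytes hold little of OXCT1, the enzyme with which other tissues burn ketone bodies, and pass them to the blood through monocarboxylate transporters of the SLC16 family. BDH2 is a cytosolic dehydrogenase named for the same reaction as BDH1, SLC16A1 (MCT1) carries lactate, pyruvate and ketone bodies, and SLC16A6 (MCT7) has been described as an exporter of β-hydroxybutyrate from the liver.

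The libraries held 15005277 to 22746138 counts in genes, of which the 14754 genes past the filter on low counts took 99.9%. Tet1 itself was near the floor, at 1, 4 and 1 counts for WT replicates and 2, 1, 4 and 1 counts for TET1 KO replicates, so its mRNA could not check the genotype labels. Summed markers of hepatocytes lay between 63336 and 84962 CPM (counts scaled to the TMM-adjusted library total) in WT and between 76204 and 83471 CPM in TET1 KO livers, so hepatocyte genes were abundant in every library. In whole liver, fewer cells of a type and less RNA per cell cannot be told apart.

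Because TET1 acts on CpG dinucleotides, the RefSeq promoters of the members (GRCm38.p6, 250 bases before the start to 50 after it) are shown with each CpG in capitals, to let the transporter and the dehydrogenases be compared. RefSeq windows were matched for 3 of the 5 genes, all but Acat1 and Slc16a6. The Slc16a1 window is chr3:104638414-104638713, the window of the first Bdh1 start is chr16:31422047-31422346 and the Bdh2 window is chr3:135280971-135281270, all on the plus strand.
Slc16a1: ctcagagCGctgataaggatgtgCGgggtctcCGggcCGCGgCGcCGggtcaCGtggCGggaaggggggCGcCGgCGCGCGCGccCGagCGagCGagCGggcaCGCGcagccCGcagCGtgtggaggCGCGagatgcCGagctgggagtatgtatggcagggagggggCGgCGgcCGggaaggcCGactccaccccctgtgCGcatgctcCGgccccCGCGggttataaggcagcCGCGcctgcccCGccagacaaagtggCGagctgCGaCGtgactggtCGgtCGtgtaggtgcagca
Bdh1: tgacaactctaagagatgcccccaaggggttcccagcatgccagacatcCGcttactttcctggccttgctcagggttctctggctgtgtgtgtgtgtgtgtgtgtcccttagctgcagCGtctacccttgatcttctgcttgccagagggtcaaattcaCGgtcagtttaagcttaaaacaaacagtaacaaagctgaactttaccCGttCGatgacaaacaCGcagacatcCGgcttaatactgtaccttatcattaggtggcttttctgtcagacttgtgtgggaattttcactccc
Bdh2: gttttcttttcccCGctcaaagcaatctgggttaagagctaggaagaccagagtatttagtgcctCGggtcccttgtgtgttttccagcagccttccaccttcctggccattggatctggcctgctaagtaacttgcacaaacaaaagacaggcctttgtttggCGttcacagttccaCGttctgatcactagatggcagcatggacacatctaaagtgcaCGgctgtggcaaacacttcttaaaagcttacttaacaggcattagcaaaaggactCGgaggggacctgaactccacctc
The Slc16a1 window held 42 CpG and was 73.7% G or C, and 97% of the 32851 promoters in the table held fewer CpG. The first Bdh1 window held 7 CpG, which is the median of all promoters, and Bdh2 held 6. The window of a second Bdh1 start (chr16:31428503-31428802, plus strand) held 17, more than 68.6% of promoters. The window of Slc16a10, a transporter gene that was higher in TET1 KO livers, held 26, more than 83.1% of promoters. The letters AGGTCA, the core that many nuclear receptors bind, were searched on both strands and stand in 16.3% of all promoters, and were found in none of the 4 windows of the members. Methylation was not measured in these libraries.

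**Figure D1:**
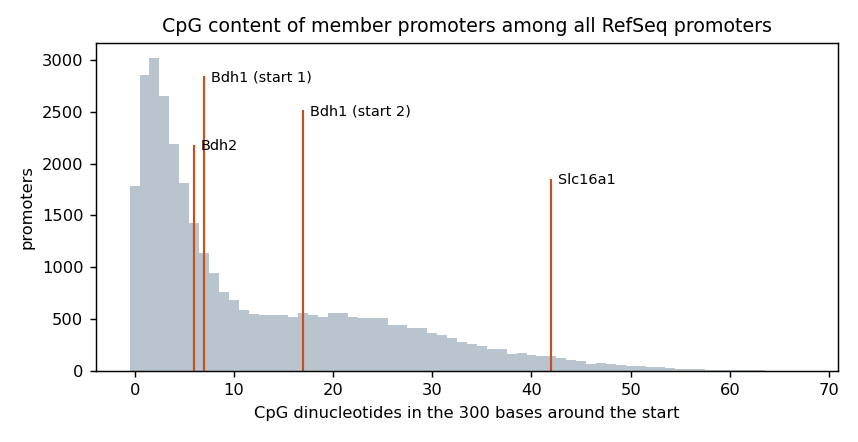
Histogram of the number of CpG in the 300 bases around the start of 32851 RefSeq promoters (x axis, CpG per promoter; y axis, number of promoters), with lines at the members' windows. Slc16a1, with 42 CpG, lies far to the right of Bdh2 with 6 and of the first Bdh1 start with 7, which sit at the middle of the distribution.

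Slc16a1 mRNA was lower in TET1 KO livers. Slc16a1 (ENSMUSG00000032902, chr3:104638664-104658462, plus strand, GRCm38) was at 37.1, 39.8 and 39.2 CPM in the WT livers and at 25.1, 26.3, 24.7 and 22.4 CPM in the TET1 KO livers. The groups did not overlap, and the spread within each genotype was small beside the gap between them. The mean was 38.7 ± 1.45 CPM (SD, n = 3) in WT and 24.6 ± 1.62 CPM (SD, n = 4) in TET1 KO, so the knockout held 63.6% of the WT level. The log2 fold change was -0.65 (SE 0.12, 95% interval -0.91 to -0.39), and the quasi-likelihood test of edgeR gave a Benjamini-Hochberg adjusted p of 0.0232. DESeq2 gave 0.000184. The exact two-sided permutation test over the 35 splits of the 7 mice gave p = 0.0286, the smallest it can give. Slc16a1 was the only member called at an adjusted p under 0.05, 1 of 5, where 1.15% of all tested genes were called lower by edgeR and 4.8% by DESeq2. The call was lost when single livers were left out. The adjusted p in edgeR was 0.104 without WT replicate 2, 0.0595 without WT replicate 3, 0.0535 without TET1 KO replicate 2 and 0.0735 without TET1 KO replicate 3, with log2 fold changes between -0.70 and -0.61 over all 7 such fits.

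**Figure D2:**
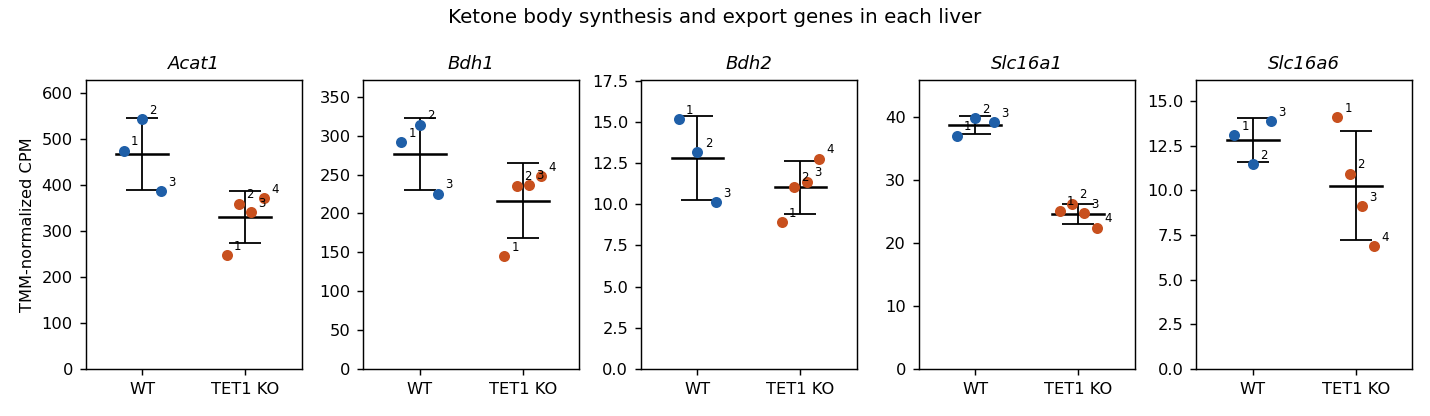
TMM-normalized CPM (y axis from 0) of each member in the 3 WT and 4 TET1 KO livers. Points are livers numbered by replicate, the line is the mean and the bars are the SD. The groups are apart for Slc16a1 (37.1 to 39.8 against 22.4 to 26.3 CPM) and for Acat1 (386 to 543 against 247 to 371 CPM), and they overlap for Bdh1, Bdh2 and Slc16a6.

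Acat1, the first step of the route, had the same order of groups but a wider spread. Acat1 (ENSMUSG00000032047, chr9:53580522-53610350, minus strand) was at 474, 543 and 386 CPM in WT livers and at 247, 359, 340 and 371 CPM in TET1 KO livers. The highest TET1 KO liver and the lowest WT liver were close, and they did not cross. The means were 467.5 ± 78.7 CPM (SD, n = 3) and 329 ± 56.5 CPM (SD, n = 4), or 70.4% of WT. The log2 fold change was -0.51 (SE 0.18, 95% interval -0.91 to -0.11), and it did not pass (adjusted p 0.120 by edgeR, 0.0557 by DESeq2). The exact permutation p was 0.0286. Acat1 and Slc16a1 were thus the 2 of 5 members whose groups did not overlap, both lower in TET1 KO, an order that 10.8% of all tested genes had, and 22.5% of all tested genes were apart in either direction.

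The dehydrogenase Bdh1, the last step of the route, overlapped between genotypes. Bdh1 (ENSMUSG00000046598, chr16:31422297-31458901, plus strand) was at 291.5, 314 and 225 CPM in WT livers and at 145, 236, 237 and 248 CPM in TET1 KO livers. TET1 KO replicate 1 stood well below the others, and the remaining TET1 KO livers lay above the lowest WT liver. The log2 fold change was -0.36 (SE 0.20, 95% interval -0.79 to 0.08, adjusted p in edgeR 0.272), and without TET1 KO replicate 1 it was -0.20 (adjusted p in edgeR 0.416). The interval still holds a decrease as large as that of Slc16a1. Bdh2 (ENSMUSG00000028167, chr3:135281221-135304426, plus strand) was at 15.2, 13.1 and 10.1 CPM in WT livers and at 8.89, 11.1, 11.4 and 12.8 CPM in TET1 KO livers, and 3 of the 4 TET1 KO livers fell inside the WT range. Its log2 fold change was -0.22 (SE 0.18, 95% interval -0.62 to 0.19, adjusted p in edgeR 0.462). It was -0.09 without WT replicate 1 and -0.38 without WT replicate 3.

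The other named exporter, Slc16a6, did not pass the test either. Slc16a6 (ENSMUSG00000041920, chr11:109450855-109473598, minus strand) was at 13.1, 11.4 and 13.9 CPM in WT livers and at 14.1, 10.9, 9.10 and 6.87 CPM in TET1 KO livers. TET1 KO replicate 1 was the highest of all 7 livers for this gene, although it was the lowest for Acat1, Bdh1 and Bdh2. The log2 fold change was -0.32 (SE 0.22, 95% interval -0.81 to 0.16, adjusted p in edgeR 0.361). The Slc16a6 value was -0.52 without TET1 KO replicate 1 and -0.17 without TET1 KO replicate 4. In GENCODE M1 its exons share 1052 bases, 21.5% of their length, with Amz2 and 48 bases with Arsg, both on the opposite strand, and the strand setting of the counting is not given in the sources used here. Amz2 had a log2 fold change of -0.22 (adjusted p in edgeR 0.427) and Arsg one of -0.94 (adjusted p in edgeR 0.0219). Their part in the Slc16a6 counts was not tested.

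All 5 members had a negative log2 fold change, with a median of -0.36, while 48.9% of all tested genes had a negative value and their median was 0.01. The 5 values stayed negative under DESeq2 and under every scaling and filter tried. The genes share livers, so these are not 5 independent observations. Levels between genes were compared as CPM per kilobase of exon. In WT livers Acat1 led the members with 124 ± 20.9 CPM per kb (SD, n = 3), followed by Bdh1 with 72.9 ± 12.2, Bdh2 with 10.6 ± 2.12, Slc16a1 with 8.74 ± 0.327 and Slc16a6 with 2.62 ± 0.252. Bdh2 and Slc16a1 overlapped in WT livers, and the other neighbours in that order did not. In TET1 KO livers the order was the same and no neighbours overlapped, Acat1 and Bdh1 narrowly, with 87.6 ± 15.0 CPM per kb for Acat1, 57.0 ± 12.6 for Bdh1, 9.16 ± 1.33 for Bdh2, 5.56 ± 0.366 for Slc16a1 and 2.10 ± 0.625 for Slc16a6 (SD, n = 4).

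Oxct1, the enzyme of ketone body use, was low in every liver, at 2.53 to 3.25 CPM in WT and 2.46 to 4.86 CPM in TET1 KO. The groups overlapped, and its log2 fold change was 0.25 (SE 0.26, 95% interval -0.32 to 0.82, adjusted p in edgeR 0.556). It was 0.06 without TET1 KO replicate 2 and 0.38 without TET1 KO replicate 3.

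The members were also set against each other within each liver, which removes the scaling between libraries. These ratios were chosen after the values had been seen and carry no test. The log2 ratio of Slc16a1 to Acat1 was -3.77 to -3.29 in WT livers and -4.04 to -3.29 in TET1 KO livers, and the genotype means differed by -0.14. The log2 ratio of Slc16a1 to Bdh1 was -2.98 to -2.52 in WT livers and -3.46 to -2.52 in TET1 KO livers. That of Slc16a1 to Slc16a6 was 1.49 to 1.79 in WT livers and 0.83 to 1.69 in TET1 KO livers. These 3 ratios overlapped between the genotypes. The log2 ratio of Bdh1 to Acat1 overlapped too, at -0.79 to -0.70 in WT livers and -0.77 to -0.52 in TET1 KO livers.

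Of the other genes of the route, 2 of 52 tested were called, where 2.02% of all tested genes were. None was called by edgeR among 7 other ketone body genes, 5 of them with negative log2 fold changes, 12 genes of mitochondrial β-oxidation (median log2 fold change -0.33), 10 regulators of ketogenesis (median 0.08) and 14 genes of leucine and isoleucine breakdown (median -0.10). At an unadjusted p under 0.05 in edgeR, the other ketone body genes had 2 lower and 0 higher, β-oxidation 4 lower and 0 higher, the regulators 1 lower and 1 higher, and leucine and isoleucine breakdown 3 lower and 3 higher, where 12.7% of all tested genes were lower and 13.6% higher. DESeq2 called 1 lower among the other ketone body genes, 1 lower in β-oxidation, 1 lower and 1 higher among the regulators and 1 lower and 2 higher in leucine and isoleucine breakdown, where it called 9.14% of all genes. In the latter 3 lists these were Hadha, a subunit of the trifunctional protein (log2 fold change in edgeR -0.51), Fgf21, a fasting hormone of the liver (-1.63), Mlxipl, which encodes ChREBP (0.90), and, in amino acid breakdown, Dld (-0.57), Dbt (0.39) and Ivd (0.45). These genes were named after their values had been seen. In β-oxidation, 10 of the 12 genes had negative log2 fold changes, and none passed in the edgeR fit without a covariate. An edgeR fit with the replicate number as a block called 3 of the β-oxidation genes. That fit also called 1 of the other ketone body genes, 2 regulators and 1 gene of leucine and isoleucine breakdown. Over all 14754 tested genes it called 1326. The groups were apart and lower in 1 of the other ketone body genes, 3 of β-oxidation, 1 of the regulators and 4 of leucine and isoleucine breakdown (10.8% of all tested genes), and apart and higher in 0, 0, 3 and 2 of these lists (11.7% of all tested genes).

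**Figure D3:**
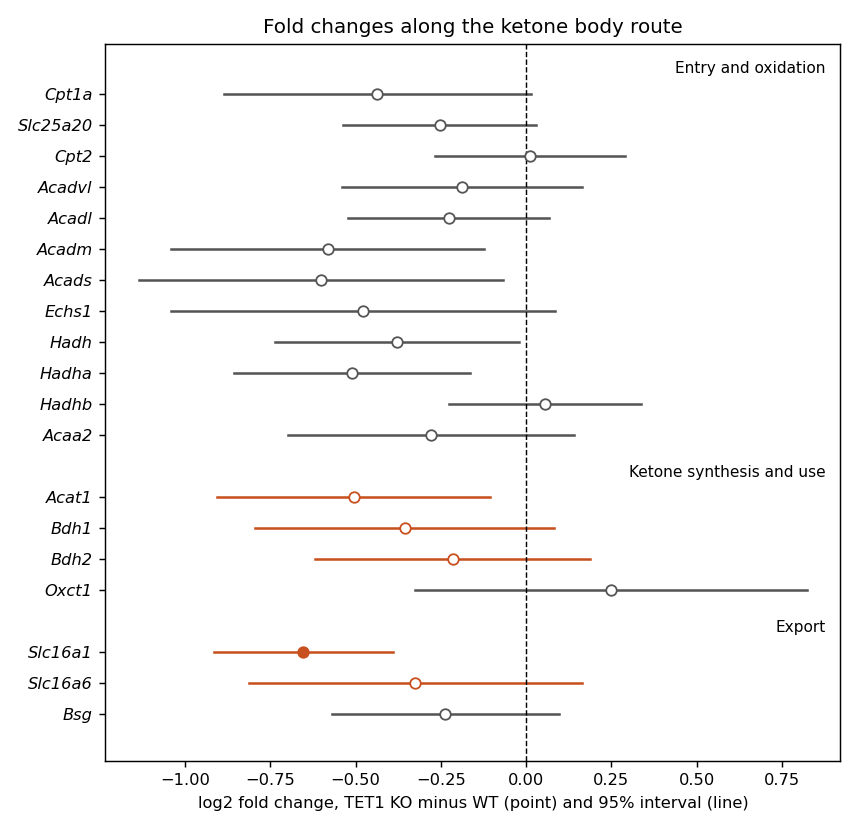
Log2 fold change (TET1 KO minus WT, x axis) of the members (orange) and of the β-oxidation genes, Oxct1 and Bsg (grey), grouped by role. Lines are 95% intervals from edgeR, and the filled point is the gene called at an adjusted p under 0.05. The interval of Slc16a1 runs from -0.91 to -0.39 and that of Bdh1 from -0.79 to 0.08, which includes 0.

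Among the other monocarboxylate transporters, 1 gene was called lower and 1 higher, where edgeR called 1.15% of all tested genes lower and 0.874% higher. Of the 9 tested genes of this list, 3 were lower and 1 higher at an unadjusted p under 0.05 in edgeR. Of all tested genes, 12.7% were lower and 13.6% higher at that threshold. DESeq2 called 3 of the list lower and 1 higher. Of all 14577 genes that it tested, it called 699 lower (4.8%) and 633 higher. The groups were apart in 5 genes that were lower and 1 that was higher, where 10.8% of all tested genes were apart and lower and 11.7% apart and higher. Slc16a5 (MCT6) was at 11.4, 15.1 and 6.07 CPM in WT livers and at 1.06, 2.54, 1.64 and 3.94 CPM in TET1 KO livers. All TET1 KO livers lay below all WT livers, and the log2 fold change was -2.23 (SE 0.40, adjusted p in edgeR 0.0221). Slc16a10 (TAT1), a transporter of aromatic amino acids, rose from 54.7, 58.2 and 58.3 CPM in WT livers to 84.7, 84.2, 119 and 94.7 CPM in TET1 KO livers. This was a log2 fold change of 0.74 (SE 0.15, adjusted p in edgeR 0.0329), with no overlap between the groups. Slc16a10 lies on chromosome 10, as Tet1 does, 22.7 Mb from it in GRCm38, and so do Slc16a9 (7.36 Mb from it), Bsg (16.8 Mb) and Slc16a7 (62.3 Mb), while none of the 5 members is on that chromosome. For these chromosome 10 genes, the loss of TET1 and sequence linked to the targeted allele cannot be told apart. The study's methods give no backcrossing for the knockout line. Strain differences on other chromosomes, those of the members included, were not tested. Slc16a5 lost its call without WT replicate 2 (adjusted p in edgeR 0.138), TET1 KO replicate 2 (0.0574) or TET1 KO replicate 3 (0.0735), and Slc16a10 passed in 2 of 7 fits with a liver left out, failing without any one of WT replicates 1, 2 and 3 and TET1 KO replicates 2 and 3 (adjusted p in edgeR 0.0594, 0.142, 0.0812, 0.0568 and 0.0901). Over these fits the log2 fold change ran from -2.65 to -1.92 for Slc16a5 and from 0.61 to 0.80 for Slc16a10.

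Slc16a7 and Slc16a13 passed in DESeq2 and missed the threshold in edgeR with TMM scaling and the filter on low counts, and both were named after their values had been seen. With library size as the only scaling, or with no filter, edgeR called 4 genes of this list in place of 2. Slc16a7 (MCT2), a carrier of pyruvate, lactate and ketone bodies, was at 110.6, 119.7 and 64.6 CPM in WT livers and at 42.5, 59.7, 52.6 and 61.6 CPM in TET1 KO livers. The groups did not overlap, and the log2 fold change was -0.86 (SE 0.21, 95% interval -1.32 to -0.40), with adjusted p values of 0.0590 by edgeR and 0.00499 by DESeq2. Slc16a13 (MCT13), a less studied member of the family, was at 3.89, 4.73 and 3.37 CPM in WT livers and at 2.50, 1.76, 2.25 and 2.04 CPM in TET1 KO livers. Its groups were apart as well, with a log2 fold change of -0.90 (SE 0.22, 95% interval -1.39 to -0.41) and adjusted p values of 0.0611 by edgeR and 0.0246 by DESeq2.

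In level per kilobase, Slc16a1 stood in the middle of the tested SLC16 genes. Slc16a10 and Slc16a1 overlapped in WT livers, at 8.90 to 9.48 and 8.37 to 8.99 CPM per kb, with means of 9.29 and 8.74, and Slc16a10 was well above Slc16a1 in TET1 KO livers, at 15.6 against 5.56. Slc16a6 stood near the lower end, at 2.62 CPM per kb in WT and 2.10 in TET1 KO livers. Bsg (basigin), the chaperone that takes MCT1 to the cell surface, was at 373, 348 and 375 CPM in WT livers and at 250, 343, 300 and 345.5 CPM in TET1 KO livers, and the log2 fold change was -0.24 (SE 0.15, adjusted p in edgeR 0.330). The TET1 KO livers all lay below the lowest WT liver for Bsg, but narrowly, at 345.5 against 348 CPM. Of all tested genes, 10.8% had that order. Bsg was named after its values had been seen.

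**Figure D4:**
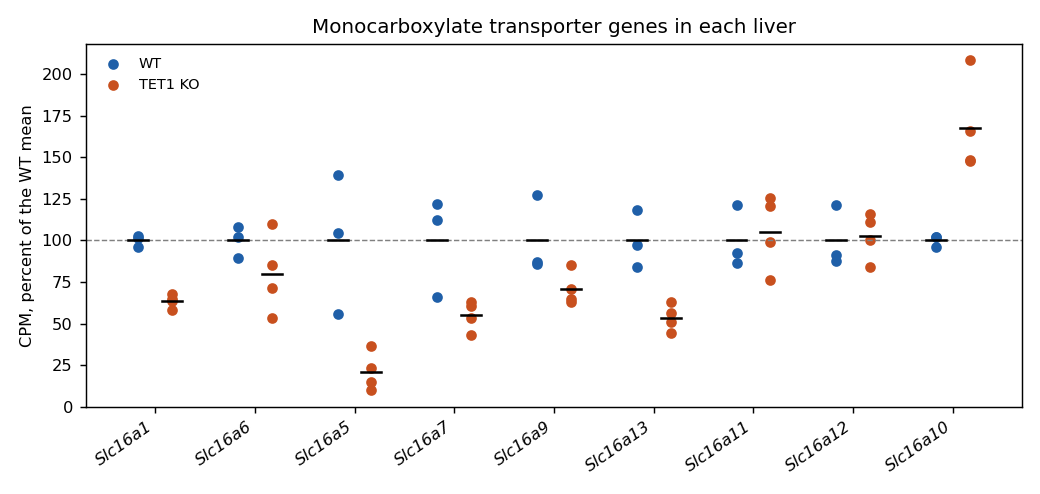
CPM of 9 of the tested SLC16 genes in each of the 3 WT and 4 TET1 KO livers, as a percent of the WT mean of that gene (y axis). Points are livers and short lines are group means. The TET1 KO mean was at 63.6% of WT for Slc16a1, 80.1% for Slc16a6, 21.1% for Slc16a5 and 168% for Slc16a10.

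The genes whose log2 CPM followed Slc16a1 most closely over the 7 livers, outside the lists, were Stamos (r = 0.994), Dpp9, a dipeptidyl peptidase (r = 0.984), and Fmnl2, a formin that acts on actin (r = 0.983). The points share the split by genotype, so these values largely restate it. Stamos rested on 5 to 16 counts per library. The log2 fold change of Dpp9 was -0.37 (adjusted p in edgeR 0.0851) and that of Fmnl2 was -0.65 (adjusted p in edgeR 0.0575).

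Slc16a1 is expressed in many cell types of the liver, so marker sums stand beside its result. Cholangiocyte markers summed to 29.7 to 37.8 CPM in WT and 46.1 to 68.0 CPM in TET1 KO livers, and 5 of 5 had positive log2 fold changes. Endothelial markers summed to 142.5 to 145 CPM in WT and 118 to 141 CPM in TET1 KO livers, with 5 of 6 negative. Macrophage markers (202 to 329 against 153 to 331 CPM, 5 of 7 negative) and stellate cell markers (197 to 304 against 187 to 265 CPM, 5 of 6 negative) overlapped. Lymphocyte markers (1.95 to 2.92 against 2.63 to 5.71 CPM) and neutrophil markers (2.03 to 31.1 against 1.31 to 8.17 CPM) were low in both genotypes, as were adipocyte markers (2.10 to 3.25 against 0.278 to 19.4 CPM), which were highest in TET1 KO replicate 2. Erythroid markers summed to 524 to 563 CPM in WT and 151 to 730 CPM in TET1 KO livers. Of 42 tested marker genes, edgeR called 0, where it called 2.02% of all tested genes. At an unadjusted p under 0.05 in edgeR, 4 were lower and 5 higher. Of all tested genes, 12.7% were lower and 13.6% higher at that threshold. DESeq2 called 2 markers lower and 4 higher, where it called 9.14% of all genes in either direction and 4.8% lower. No listed marker gene was at 0 in all 7 libraries. The part of these cells in the Slc16a1 result was not tested.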

How the data were processed

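RNA-seq measured mRNA in livers of 3 WT and 4 TET1 KO mice. The sample labels gave each group and replicate number. The authors deposited 1 table of raw counts per liver, which are not normalized. Per the submitters' processing notes, Trimmomatic 0.36, GSNAP, featureCounts 1.5.3 and GRCm38 were used. The library kit keeps strand, but the strand setting of the counting is not given in the sources used here. The 7 tables were joined by Ensembl identifier, since 26 symbols differed between them, and 5 repeated entries were left out. Libraries of the same genotype differed by a chi-square of at least 25.0 per degree of freedom, so none was a copy. The labels give replicate numbers only, and the study's supplement lists liver samples of 3 WT and 4 TET1 KO mice. The p-values therefore measure the spread between these mice.

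The test was that of edgeR 4.0.16 in R 4.3.3 (filterByExpr, TMM, glmQLFit and glmQLFTest, no covariate), on 14754 genes, with Benjamini-Hochberg adjustment over all of them and a threshold of 0.05. Each liver was an independent sample. CPM values carry the TMM scaling. For log2 CPM the prior count was 2. Intervals are at 95%. DESeq2 1.42.0 was the alternative test. The edgeR and DESeq2 scripts were first tested on simulated data. An exact permutation test (two-sided, 35 splits) was run on the CPM of each member. Exon lengths and overlaps came from GENCODE M1 (NCBIM37), which was not the counting annotation, and coordinates and promoters from RefSeq (GRCm38.p6). Counts of 15005277 to 22746138 per library put 1 CPM, with the TMM scaling, at 14.2 to 24.1 counts.

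The members and gene lists were chosen with earlier results of these data known. Named genes were the 5 members, every called gene of the pathway lists, Oxct1 as the step of ketone body use, and the 3 genes most like each called member by Pearson r. Outside that rule, genes called by DESeq2 and not by this edgeR fit, Bsg, Amz2 and Arsg were named after their values had been seen. Some other genes of the route are not reported here. Alternatives were DESeq2, other scalings and filters, robust dispersions, a replicate block and leaving out each liver.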

Additional observations from a re-analysis of the deposited data

Results flagged for a closer look

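Bdh1 in the TET1 KO livers was flagged because 1 liver stood apart from the other 3. TET1 KO replicate 1 was at 145 CPM, while the others were at 236, 237 and 248 CPM, and its gap to the nearest liver was 0.883 of the whole range, above Dixon's 95% critical value for 4 samples. Of 13 genes examined, 1 was flagged, where chance would flag 0.65. Replicate 1 was also the lowest of the TET1 KO livers for Acat1 (247 CPM) and Bdh2 (8.89 CPM), and the highest for Slc16a6 (14.1 CPM). Its Slc16a1 level, 25.1 CPM, lay among those of the other replicates (22.4 to 26.3 CPM).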

How the results depend on the processing

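The log2 fold changes of the 5 members stayed negative in all 14 alternatives. The number of members called (1, Slc16a1) ranged from 0 to 1 when single livers were left out and was 1 in every other alternative. For Slc16a1 those fits gave log2 fold changes of -0.70 to -0.61 and adjusted p of 0.0346 to 0.104 in edgeR, under the threshold in 3 of 7, and the full span of its adjusted p was 0.000184 (DESeq2) to 0.104. The cause of the lost calls was not tested. Acat1, Bdh1, Bdh2 and Slc16a6 passed in none. The number of genes called among all tested was 298, and it was 1332 with DESeq2, 592 with no filter on low counts and 38 to 891 with a liver left out. The other genes of the route went from 2 called to 11 with DESeq2, 4 with library size only, 5 with no filter and 0 to 4 with a liver left out. Library size only also moved the split of calls from 129 higher and 169 lower to 107 and 312, and the median of all genes from 0.01 to -0.08.

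The replicate numbers did not pair the livers. Same-numbered WT and TET1 KO livers had deviations correlated at 0.21, -0.12 and -0.10, and not every liver correlated best with its own number. A fit with the replicate number as a block, which can use TET1 KO replicate 4 only to estimate its own block, called 1326 genes, 1 member and 10 of the other route genes. Slc16a1 had a log2 fold change of -0.61 (adjusted p in edgeR 0.0355) under that block and Acat1 one of -0.57 (adjusted p in edgeR 0.0885).

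With 3 and 4 livers, the intervals of Acat1, Bdh1 and Slc16a6 still hold decreases as large as that of Slc16a1 (lower bounds -0.91, -0.79 and -0.81), and that of Bdh2 reaches -0.62, so a miss of the threshold does not show equal levels.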
